A study of Homo sapiens with 8 samples.

Results

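Metallothioneins are small cysteine-rich proteins that bind zinc and copper and can scavenge oxidants. Their genes are classic targets of MTF1, a zinc-finger transcription factor that senses free zinc and binds metal response elements in metallothionein promoters. Glucocorticoids and oxidative or metal stress are also known to induce them, and airway epithelium is among the tissues that express them. The genes described here are MT1E, MT1F, MT1G, MT1M, MT1X and MT2A together with MTF1, chosen by name. They are 7 of the 58735 genes in the tables. Of these, 6 passed the filter on low counts, which asked for 10 or more rounded counts in 2 or more libraries and kept 18242 genes in all, and MT1G did not.

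The libraries came from BEAS-2B cells, a virus-transformed line of human bronchial epithelium and so 1 cell line rather than a tissue. Cells on collagen-coated inserts at the air-liquid interface received humidified clean air (CA) or air with 1 ppm formaldehyde (FA) for 2 h, and both arms then recovered in fresh medium for 6 h. Total RNA depleted of ribosomal RNA was sequenced before (input, CA_IN and FA_IN) and after immunoprecipitation with an antibody against 8-oxo-7,8-dihydroguanosine (8-oxoG), an oxidized guanine (pull-down, CA_IP and FA_IP). Each of the 4 groups held 2 libraries, which the labels call biological duplicates, and the input and pull-down of a duplicate were split from 1 RNA preparation, called an RNA pool below. The study's methods describe exposures on separate days and independent replicates but tie no library to a day, so p-values measure the spread between these libraries.

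Total expected counts were 26.2 to 45.1 M in the inputs and 16.9 to 23.7 M in the pull-downs. All 7 epithelial markers checked passed the filter (KRT7 at a median of 1812 counts-per-million, CPM). So did all 6 mesenchymal markers, VIM and FN1 each at 974 CPM, CDH2 at 40.2, COL1A1 at 9.79, PDGFRB at 2.58 and COL1A2 at 0.590 CPM. The leukocyte genes PTPRC and CD3E had a median of 0 CPM. Of the 4 endothelial markers 3 passed the filter, and none exceeded a median of 0.687 CPM. The leukocyte gene CD14 passed the filter, at a median of 4.90 CPM. The summed epithelial markers reached 3809 to 4774 CPM in the inputs and 4902 to 6387 CPM in the pull-downs. The 7SL RNA gene RN7SL1 held 18.0 to 19.8% of the transcripts-per-million (TPM) in the inputs and 28.9 to 31.6% in the pull-downs. A second 7SL gene, RN7SL2, went the other way, from 15.3 to 16.8% in the inputs to 11.8 to 12.6% in the pull-downs.

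The 6 metallothionein members lie within 75.6 kb of chromosome 16 (chr16:56608584-56684196, GRCh38), 5 of them on the plus strand and MT1G on the minus strand. MTF1 lies on chromosome 1 (chr1:37809574-37859592, minus strand) and its main transcript has 11 exons. The main transcript of each metallothionein member has 3 exons and codes for 61 amino acids, or 62 in MT1G, with 20 cysteine codons in every case. The coding sequences of the 3 abundant members are shown because they are so alike that the assignment of reads among them matters to every value below. Capitals mark the codons TGC and TGT, which encode cysteine. In GRCh38 the coding spans, introns included, are chr16:56608656-56609354 for MT2A, chr16:56625852-56626971 for MT1E and chr16:56682541-56684049 for MT1X, all on the plus strand.
MT2A: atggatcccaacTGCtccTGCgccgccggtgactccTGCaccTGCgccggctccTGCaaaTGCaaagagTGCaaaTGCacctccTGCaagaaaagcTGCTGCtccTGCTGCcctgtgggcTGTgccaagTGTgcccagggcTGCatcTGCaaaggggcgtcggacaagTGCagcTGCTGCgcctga
MT1E: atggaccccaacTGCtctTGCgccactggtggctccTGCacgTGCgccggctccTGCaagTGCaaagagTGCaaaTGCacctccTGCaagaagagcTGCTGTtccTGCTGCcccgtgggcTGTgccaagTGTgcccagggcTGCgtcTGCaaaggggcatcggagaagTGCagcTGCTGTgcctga
MT1X: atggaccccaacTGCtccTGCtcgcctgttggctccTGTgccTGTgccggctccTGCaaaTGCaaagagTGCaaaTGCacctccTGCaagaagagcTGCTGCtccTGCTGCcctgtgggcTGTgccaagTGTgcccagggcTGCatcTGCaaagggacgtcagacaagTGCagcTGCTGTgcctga
Each pair of these 3 coding sequences differed at 14 or 17 of 186 bases, 14 for MT2A with MT1E, 14 for MT2A with MT1X and 17 for MT1E with MT1X. Over whole transcripts of GENCODE 44 the members were easier to tell apart. In MT2A, MT1F and MT1M every stretch of 75 bases, the read length, was found in no other gene of the family, in MT1E this held for 99.2% of the stretches, in MT1G for 93.5% and in MT1X for 91.8%. The summed expected counts of all members lay within 0.16 of whole numbers, so few reads had been divided between genes.

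The promoters of MT2A and MT1X, the most abundant members with a sequence in the RefSeq table used (GRCh38.p14), are shown because they carry the elements through which MTF1 acts. They are the 250 bases before the transcription start, chr16:56608334-56608583 and chr16:56682220-56682469 on the plus strand. Capitals mark the core of the metal response element, searched as TGCACNC and TGCGCNC on both strands.
MT2A promoter: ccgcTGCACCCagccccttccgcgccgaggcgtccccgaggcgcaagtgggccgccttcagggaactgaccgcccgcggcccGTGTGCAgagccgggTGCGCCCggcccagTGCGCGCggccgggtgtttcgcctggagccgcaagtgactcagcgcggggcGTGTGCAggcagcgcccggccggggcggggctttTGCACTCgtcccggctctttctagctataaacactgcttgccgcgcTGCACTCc
MT1X promoter: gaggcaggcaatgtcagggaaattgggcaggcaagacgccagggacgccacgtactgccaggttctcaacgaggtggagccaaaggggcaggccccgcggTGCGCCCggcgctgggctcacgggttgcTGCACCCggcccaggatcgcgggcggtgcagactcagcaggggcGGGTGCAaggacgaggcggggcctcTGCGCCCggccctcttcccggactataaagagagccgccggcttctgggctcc
The MT2A window held 7 such cores and the MT1X window 4, and the same window of MTF1 held 0. Of the 35116 RefSeq promoters, 24.8% held at least 1 core, 0.370% at least 4 and 0.0313% at least 7. The core of the antioxidant response element, searched as TGACNNNGC on both strands, occurred once in each of these 2 metallothionein windows, not in that of MTF1, and in 10.9% of all promoters. These matches describe letters in a window and were not tested for binding.

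MT2A was the leading metallothionein of these cells. In CA_IN it stood at 618 and 667 TPM, the scale that corrects for transcript length, and ranked 57 among the 13835 protein-coding genes tested. MT1X followed at 319 and 436 TPM (rank 100) and MT1E at 249 and 339 TPM (rank 121). The ranges of MT1X and MT1E overlapped between libraries, although MT1X was above MT1E in each library. MT1L, which the annotation lists as a transcribed pseudogene, stood at 29.1 and 30.8 TPM. Below it, MT1F had 1.65 and 3.25 TPM, MT1A 1.10 and 1.48 TPM, MTF1 1.03 and 1.06 TPM, and MT1M 0.640 and 1.05 TPM. With 2 libraries each, the order of these last 4 genes is uncertain, and the values of MTF1 and MT1M overlapped. MT1G was near absence, with 0 to 3 counts per library and 0.0900 and 0.150 TPM in CA_IN. Of the 16 other metallothionein genes and pseudogenes in the annotation, 8 had a count in some library and 2, MT1L and MT1A, passed the filter. The brain-enriched MT3 had between 5 and 18 counts in a whole group of 2 libraries.

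The TPM values rest on the transcript models of the files. These give the main transcript 786 nt in MT2A, 704 nt in MT1E, 690 nt in MT1F, 829 nt in MT1M and 450 nt in MT1X, whereas GENCODE 44 has 401, 704, 425, 398 and 404 nt for the same transcripts. A level divided by the longer model is the lower one, so the TPM of MT2A, MT1F and MT1M depend on this choice. The main transcript held 98.8% of the counts of MT2A and 97.2% of those of MT1X. In MT1E it held 78.8%, and a second transcript of 332 nt held 20.7%, a share that ran from 18.1 to 21.7% over the 8 libraries.

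The first comparison asked whether the metallothioneins responded to formaldehyde. In the inputs no member passed the test 6 h after exposure, and the abundant ones differed by 1.11-fold to 1.13-fold. MT2A stood at 962 and 1075 CPM (scaled by the trimmed mean of M-values, TMM) in CA_IN and at 1139 and 1129 CPM in FA_IN. Both FA_IN values lay above both CA_IN values, by a small margin. The difference was 0.16 on the log2 scale (SE 0.13, 95% interval -0.13 to 0.44, adjusted p = 0.945 by the quasi-likelihood test of edgeR with Benjamini-Hochberg adjustment over all tested genes). MT1X stood at 209 and 296 CPM in CA_IN and at 248 and 324 CPM in FA_IN, a log2 difference of 0.18 (SE 0.28, adjusted p = 0.949). MT1E stood at 201 and 286 CPM in CA_IN and at 237 and 307 CPM in FA_IN, a log2 difference of 0.16 (SE 0.26, adjusted p = 0.950). For both genes the groups overlapped, since replicate 2 was the higher library in each. By edgeR 0 of the 6 members tested passed the limit of 0.05, 0 had an unadjusted p under 0.05, and DESeq2, which called 0.0164% of all genes, called 0 of them. Of all tested genes 0.00548% passed in edgeR, which is 1 gene, the readthrough locus BIVM-ERCC5, against 611 genes at an unadjusted p under 0.05.

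The intervals bound what could have been missed. For MT1X the 95% interval ran from -0.46 to 0.82 and for MT1E from -0.44 to 0.76. Within replicate numbers the FA_IN to CA_IN ratio was 0.25 and 0.13 for MT1X, 0.24 and 0.10 for MT1E and 0.24 and 0.07 for MT2A on the log2 scale, above 0 in both for each gene. With a term for the replicate number, the unadjusted p was 0.0386 for MT1X, 0.0504 for MT1E and 0.0839 for MT2A, and the adjusted p was 0.312, 0.344 and 0.404. That fit called 258 genes in all (1.41% of those tested) and no member. The log2 difference of the weakly expressed MT1F was 0.05 (SE 0.36) and that of MT1M 0.01 (SE 0.53). In bulk RNA a change in RNA per cell cannot be told apart from a change in the number of cells that express a gene.

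The metal sensor MTF1 was not called either. It held 17.4 and 16.3 CPM in CA_IN and 16.4 and 14.8 CPM in FA_IN, groups that overlapped, with a log2 difference of -0.11 (SE 0.13, 95% interval -0.41 to 0.19, adjusted p = 0.945). Its TPM, by contrast, read 1.03 and 1.06 in CA_IN and 1.35 and 1.40 in FA_IN. The rise on that scale came from a 413-nt transcript of the gene, to which 5.32 and 6.74 expected counts were assigned in CA_IN and 10.4 and 13.4 in FA_IN. The main transcript of 7972 nt read 0.810 and 0.730 TPM in CA_IN and 0.650 and 0.670 TPM in FA_IN. The short transcript held 21.7 and 30.9% of the MTF1 TPM in CA_IN and 51.7 and 52.0% in FA_IN on so few counts.

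**Figure D1:**
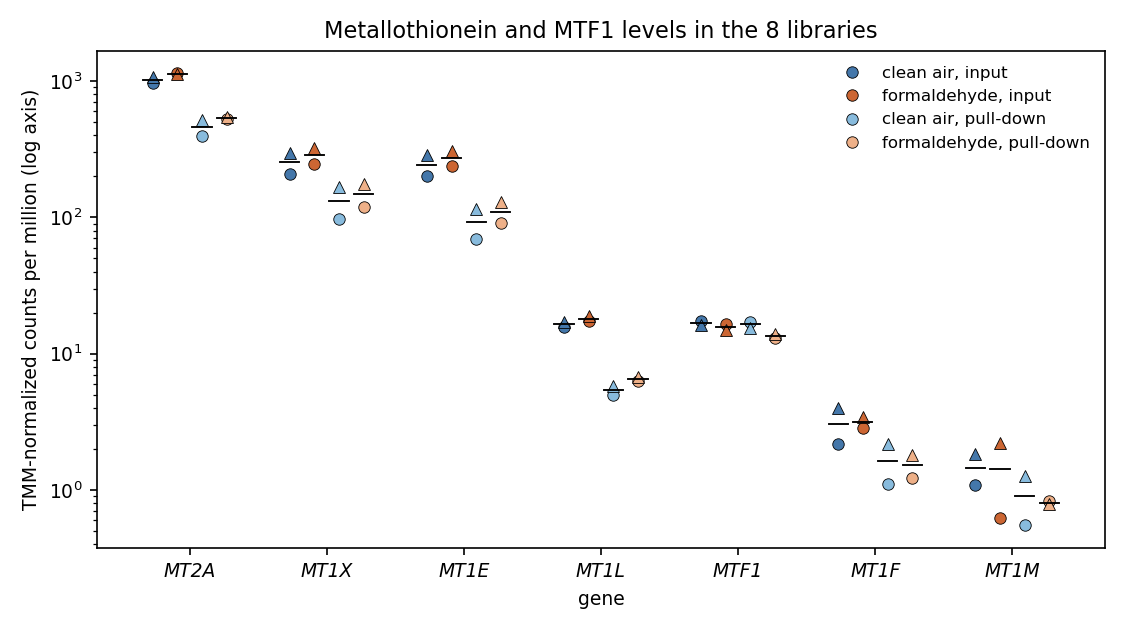
TMM-normalized CPM (log axis) of MT2A, MT1X, MT1E, MT1L, MTF1, MT1F and MT1M in the 8 libraries, with circles for replicate 1, triangles for replicate 2 and a line at the mean of 2. The pull-down values of MT2A (394 to 547 CPM), MT1X, MT1E and MT1L lie below all of their input values, those of MTF1 lie beside them, and formaldehyde and clean air lie close together in MT2A and MT1L.

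Genes that share regulators or cargo with the metallothioneins gave no called change with formaldehyde in the inputs. Of 10 zinc exporters of the SLC30 family, 7 were tested and 0 were called, with a median log2 difference of -0.13 beside 0.02 over all tested genes. SLC30A1, the plasma membrane zinc exporter and a known MTF1 target, was not called at -0.14 (SE 0.11, adjusted p = 0.945). Of 14 zinc importers of the SLC39 family, 12 were tested and 0 were called (median 0.02). All 11 copper-handling genes were tested and 0 were called (median 0.12). The same held for 10 glucocorticoid-induced genes (median -0.0047) and for 10 genes of metal and electrophile stress, among them HMOX1, the NRF2 targets NQO1 and GCLM and the heat shock gene HSPA1A (median -0.0040). By edgeR 611 of the 18242 tested genes had an unadjusted p under 0.05. Among them were 1 copper-handling gene and 1 glucocorticoid-induced gene, and 0 genes of the other lists. The glucocorticoid-induced gene was DUSP1, a MAP kinase phosphatase, at -0.35 (SE 0.10, unadjusted p = 0.00717, adjusted p = 0.945).

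The second comparison set each pull-down beside its input, to ask how the metallothionein mRNAs behaved in the 8-oxoG immunoprecipitation. All 5 tested had negative differences, and MT2A and MT1E in clean air and MT2A after formaldehyde passed the test. In clean air MT2A went from 962 and 1075 CPM in the input to 394 and 522 CPM in the pull-down, 2.22-fold lower (log2 -1.15, SE 0.13, adjusted p = 0.00159). After formaldehyde it went from 1139 and 1129 CPM to 527 and 547 CPM, 2.11-fold lower (log2 -1.08, SE 0.13, adjusted p = 0.00308). No pull-down value of MT2A reached an input value in either arm. In clean air MT2A and MT1E were the 2 members called lower, and in all 1.77% of the tested genes were called lower. After formaldehyde MT2A alone of the members passed, beside 1.47% of the tested genes.

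MT1E was the member that lost most. It read 201 and 286 CPM in CA_IN against 69.3 and 115 CPM in CA_IP (log2 -1.41, SE 0.27, adjusted p = 0.0381). After formaldehyde it read 237 and 307 CPM in the input against 91.3 and 129 CPM in the pull-down (log2 -1.30, SE 0.27, adjusted p = 0.0648). The groups did not overlap in either arm. MT1X read 209 and 296 CPM in CA_IN against 97.2 and 167 CPM in CA_IP (log2 -0.94, SE 0.29, adjusted p = 0.184). After formaldehyde it read 248 and 324 CPM against 119 and 176 CPM (log2 -0.95, SE 0.29, adjusted p = 0.253), again without overlap.

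The spread behind the larger standard errors of MT1E and MT1X lay between replicate numbers and was shared by input and pull-down. With a term for the RNA pool, 4 members were called lower in each arm, MT2A, MT1E, MT1X and MT1F. In that fit the log2 differences were -1.17 (SE 0.06) for MT2A, -1.43 (SE 0.07) for MT1E, -0.97 (SE 0.07) for MT1X and -0.91 (SE 0.21) for MT1F in clean air, with adjusted p-values of 3.29e-12, 4.53e-13, 5.99e-10 and 0.00318. After formaldehyde they were -1.08, -1.31, -0.97 and -1.04, with adjusted p-values of 1.86e-11, 2.45e-12, 7.47e-10 and 0.00234. The fit called 5.85% of tested genes lower in clean air and 4.6% after formaldehyde. Its tests used 21.9 degrees of freedom for 8 libraries, because the spread is borrowed from all genes. The small p-values therefore do not stand for more replication than 2 pools per arm. With a term for the replicate number alone the same 4 members were called, beside 3.87% and 3.21% of tested genes called lower. Without these terms, the clean air call of MT1E did not survive the fit to the 4 libraries of the comparison (adjusted p = 0.0851), nor the omission of CA_IN replicate 2 (0.187), CA_IP replicate 1 (0.142), FA_IN replicate 1 (0.0724) or FA_IN replicate 2 (0.0722). The MT2A call after formaldehyde was lost without FA_IN replicate 1 (0.0555).

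MT1F and MT1M, the weakly expressed members, did not pass the test that leaves out the pool. MT1F had 94 and 145 counts in CA_IN, 26 and 45 in CA_IP, 68 and 119 in FA_IN and 22 and 44 in FA_IP. Its log2 difference was -0.91 (SE 0.40, adjusted p = 0.389) in clean air and -1.04 (SE 0.40, adjusted p = 0.457) after formaldehyde. On the CPM scale its groups overlapped in clean air (2.16 and 3.96 in CA_IN, 1.10 and 2.17 in CA_IP) and did not after formaldehyde. MT1M had 47 and 67 counts in CA_IN, 13 and 26 in CA_IP, 15 and 76 in FA_IN and 15 and 19 in FA_IP. Its difference of -0.70 (SE 0.59) in clean air and -0.86 (SE 0.61) after formaldehyde was called in none of these fits, and its groups overlapped in both arms. Leaving out 1 library moved the clean air difference of MT1F between -1.47 (without CA_IP replicate 2) and -0.42 (without CA_IN replicate 2). That of MT1M moved between -1.39 (without CA_IP replicate 2) and -0.20 (without CA_IP replicate 1), and its difference after formaldehyde turned to 0.38 without FA_IN replicate 2. MT1L, outside the member list, fell from 15.7 and 17.2 CPM in CA_IN to 4.99 and 5.74 CPM in CA_IP (log2 -1.62, SE 0.15, adjusted p = 0.000603), and by 1.46 after formaldehyde (SE 0.15, adjusted p = 0.00131).

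For MTF1 no depletion was called. It held 17.2 and 15.5 CPM in CA_IP beside 17.4 and 16.3 CPM in CA_IN, a log2 difference of -0.04 (SE 0.13, 95% interval -0.34 to 0.26, adjusted p = 0.951). After formaldehyde it held 13.0 and 14.0 CPM in the pull-down beside 16.4 and 14.8 CPM in the input. Here the groups did not overlap, but the difference of -0.21 (SE 0.13, 95% interval -0.51 to 0.10) was not called (adjusted p = 0.788, and 0.254 with the term for the RNA pool).

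**Figure D2:**
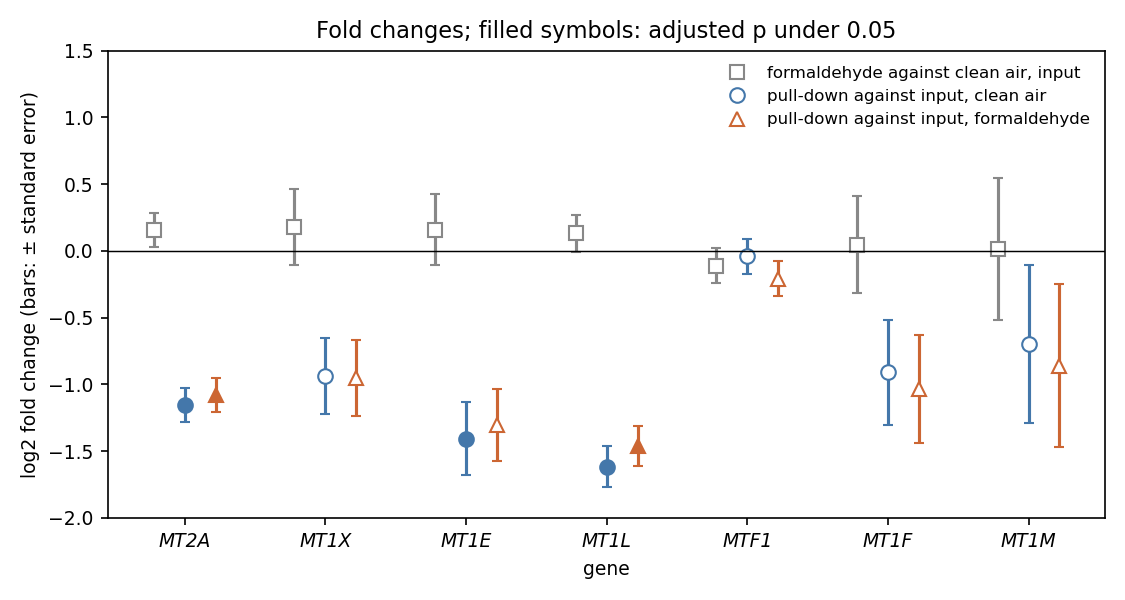
Log2 fold changes with their standard errors from edgeR for formaldehyde against clean air in the input (squares) and for pull-down against input in clean air (circles) and after formaldehyde (triangles). Filled symbols passed an adjusted p of 0.05. The metallothioneins lie near 0 for formaldehyde and between -0.70 and -1.62 for the pull-down, and MTF1 lies between -0.21 and -0.04 throughout.

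The metallothionein mRNAs are short, and genes called lower in the pull-downs were more frequent among short mRNAs, above all under 800 nt. Among the 781 tested protein-coding genes with a mean transcript length under 1000 nt, 20.5% were called lower in clean air and 19.2% after formaldehyde, against 0.444% and 0.345% of the 13054 longer ones. The median log2 difference in clean air was -1.07 in the 28 genes under 400 nt and -1.04 in the 41 genes of 400 to 500 nt. It was -0.69 in the 54 genes of 500 to 600 nt, -0.30 in the 121 of 600 to 700 nt and -0.18 in the 139 of 700 to 800 nt. In the 398 genes of 800 to 1000 nt, about the length that the files give MT1M, it was 0.03, and over all 781 short genes -0.15. From 1000 to 1500 nt it was 0.11, and from 3000 nt on, where MTF1 belongs, it was -0.02. After formaldehyde the medians from the shortest class to the longest of these were -1.05, -0.95, -0.69, -0.36, -0.29, -0.03, 0.08 and -0.02, and -0.19 over the 781 genes.

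The members can be read against these classes. In clean air MT1X, with a weighted mean length of 471 nt, lay at -0.94, near the median of its class. MT1E (627 nt) at -1.41 and MT2A (784 nt) at -1.15 lay below the lower quartile of their classes, which was -0.77 for 600 to 700 nt and -0.82 for 700 to 800 nt. MT1F (687 nt) at -0.91 and MT1M (829 nt) at -0.70 lay below the lower quartiles too, -0.77 and -0.37. The placing depends on the transcript models. The classes use the lengths in the files for all genes and were not rebuilt on GENCODE 44, so the next placings mix both. On the GENCODE 44 length of 401 nt, MT2A would fall in the class with a median of -1.04, and MT1F (425 nt) would fall in the same class, above its median. MT1M (398 nt) would fall in the class under 400 nt, above its upper quartile of -0.82. After formaldehyde, on these GENCODE 44 lengths, MT1F at -1.04 would lie below its class median of -0.95. MT1M at -0.86 would lie above its class median of -1.05. Of the 781 short genes, 6.02% had a lower value than MT1E in clean air, 10.9% a lower one than MT2A and 16.6% a lower one than MT1X. The mean fragment length implied by the effective lengths was 217 to 223 nt in the inputs and 210 to 234 nt in the pull-downs. The part of transcript length or of library preparation in the depletion was not tested.

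**Figure D3:**
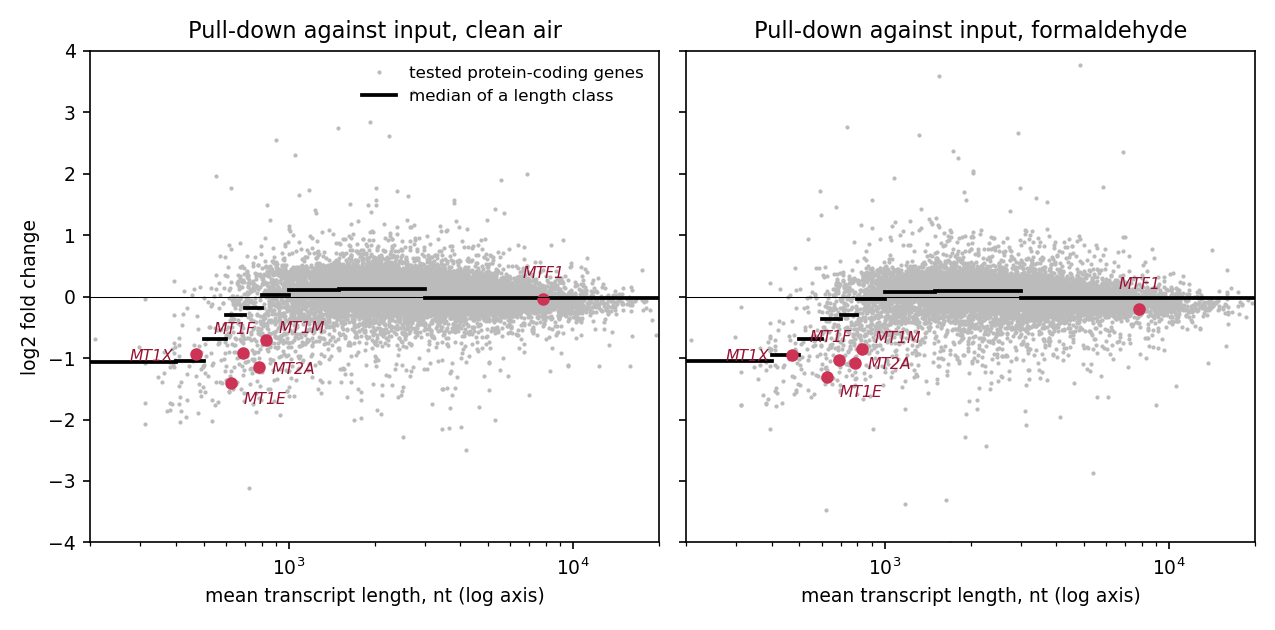
Log2 difference of pull-down against input for the 13835 tested protein-coding genes (grey points) by mean transcript length (log axis), in clean air and after formaldehyde. Black lines are medians of length classes, red points are members, and 29 and 27 genes lie outside the axes. In clean air the class medians rise from -1.07 under 400 nt to values around 0 above 800 nt. MT1X lies near the median of its class and the other metallothioneins lie below theirs on the lengths in the files. When GENCODE 44 lengths are set against these same classes, which were not rebuilt, this does not hold for MT1M in either arm. For MT1F it then does not hold in clean air but holds after formaldehyde.

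Guanine content is given beside the pull-down values, and a relation between them was not tested. The main transcript of MT2A has 23.4% guanine in GENCODE 44, that of MT1X 22.0%, that of MT1E 30.0% and that of MTF1 23.1%, beside a median of 24.7% over the tested genes with a sequence and 27.0% over the short protein-coding ones. Among MT1X, MT2A and MT1E the clean air pull-down difference was lower where the share was higher (-0.94, -1.15 and -1.41). MT1F (23.8% guanine, -0.91), MT1M (24.1%, -0.70) and MTF1 (-0.04) did not keep that order. Of the 2 tested genes of the family outside the members, MT1L (26.2%, -1.62) did not keep it and MT1A (22.2%, -1.03) did.

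The abundant members differed in how much they fell in the pull-down, and in the same order in all 4 RNA pools. Ratios between 2 genes of a library do not depend on its scaling. MT1X and MT1E were nearly equal in the inputs, with 103.6 to 105.8 counts of MT1X per 100 of MT1E in the 4 libraries. In the pull-downs the ratio was 130.2 to 145.3. It rose in each of the 4 pools, by 0.40 ± 0.07 on the log2 scale (SD, n = 4). MT1E per 100 MT2A fell in each pool, from 20.9, 26.6, 20.8 and 27.1 in the inputs (CA 1, CA 2, FA 1, FA 2) to 17.6, 22.0, 17.3 and 23.6 in their pull-downs, a log2 change of -0.25 ± 0.03 (SD, n = 4). MT1X per 100 MT2A rose from 21.8, 27.6, 21.8 and 28.7 to 24.7, 32.0, 22.6 and 32.3, a change of 0.15 ± 0.07 (SD, n = 4).

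The order of retention was thus MT1X, MT2A, MT1E and then MT1L in each of the 4 pools. An exact two-sided sign-flip permutation test over the 4 pools gave p = 0.125 for each of the 4 ratios tested (0.125 after Benjamini-Hochberg adjustment), the smallest value that 4 pools allow, so that the design cannot place these differences under 0.05. These ratios were chosen after their values were seen.

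The ratios of MT1E and of MT1X to MT2A also carried the replicate number, whereas MT1X per 100 MT1E in the inputs did not. MT1E per 100 MT2A was 17.3 to 20.9 in the 4 libraries of replicate 1 and 22.0 to 27.1 in the 4 of replicate 2, whatever the treatment or fraction. MT1X followed MT1E (Pearson's r = 0.986 over the 8 libraries on the log2 CPM scale) and MT1L followed MT2A (r = 0.992), whereas MTF1 followed neither (r = 0.209 with MT1E, 0.149 with MT1X and 0.258 with MT2A). These correlations describe 8 libraries that share 4 pools. They mix inputs with pull-downs, so they also carry the lower pull-down values of the metallothioneins, which MTF1 did not share to that extent.

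**Figure D4:**
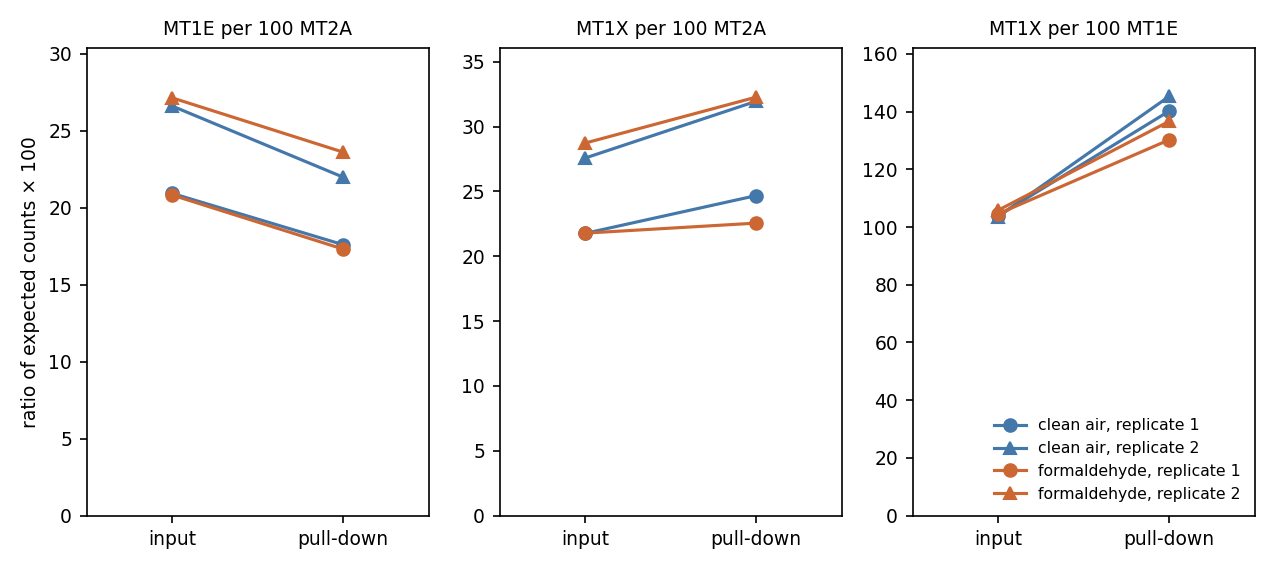
Expected counts of MT1E per 100 of MT2A, MT1X per 100 of MT2A and MT1X per 100 of MT1E in the input and pull-down of each RNA pool, joined by a line. MT1E per 100 MT2A falls in each of the 4 pools, both MT1X ratios rise in each, and MT1X per 100 MT1E starts from 103.6 to 105.8 in all 4 inputs.

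The last comparison asked whether formaldehyde changed the pull-down of the metallothioneins. For MT2A the log2 difference between the formaldehyde and the clean air pull-down effects was 0.07 (SE 0.18, 95% interval -0.33 to 0.48). For MT1E it was 0.10 (95% interval -0.75 to 0.96), for MT1X -0.02 (-0.93 to 0.90) and for MTF1 -0.17 (-0.59 to 0.26). With the term for the RNA pool the intervals narrowed to -0.10 to 0.27 for MT2A, -0.09 to 0.32 for MT1E, -0.21 to 0.21 for MT1X and -0.44 to 0.13 for MTF1. No member was called in either fit. The edgeR test without the pool called 0% of all tested genes, with 195 genes at an unadjusted p under 0.05, and DESeq2 called 3 genes (0.0164%). The pool fit called 25 genes (0.137%).

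Among the lists of related genes, the pull-down comparisons called 1 gene. The share of all tested genes called lower was 1.77% in clean air and 1.47% after formaldehyde. ATOX1, a small copper chaperone of the cytosol, was lower in the pull-down by 0.76 in clean air on the log2 scale (SE 0.11, adjusted p = 0.00945) and by 0.70 after formaldehyde (SE 0.11, adjusted p = 0.0163). The other 10 copper-handling genes were not called, with SOD1 at 0.32 and COX17 at -0.47 in clean air. Of the others edgeR called 0: none of the 7 zinc exporters, 12 zinc importers, 10 glucocorticoid-induced genes and 10 stress genes passed in a pull-down comparison or in the comparison between pull-downs. At an unadjusted p under 0.05 these lists held 1, 4, 0 and 1 gene in clean air and 0, 1, 0 and 0 after formaldehyde. The copper-handling list held 4 and 2. Of all 18242 tested genes, 2294 had such a p in clean air and 1660 after formaldehyde. The medians of the zinc exporters, zinc importers, copper-handling, glucocorticoid-induced and stress genes in clean air were -0.12, 0.08, -0.09, 0.08 and 0.06. They stood beside 0.02 over all tested genes and -0.94 over the 5 metallothionein members tested. After formaldehyde they were -0.0092, 0.07, -0.0019, -0.01 and 0.11, beside 0.0035 over all tested genes and -1.04 over the members. The lists were not matched in transcript length to the members, whose mRNAs are short.

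The genes whose CPM followed the summed metallothionein members most closely over the 8 libraries were WFDC21P, SCARNA13, RPL31, SNRPE and DNAJC15 (Pearson's r = 0.996, 0.996, 0.996, 0.995 and 0.994 on the log2 CPM scale). RPL31, a ribosomal protein gene, went from 786 to 932 CPM in the inputs to 396 to 546 CPM in the pull-downs, and SNRPE, a spliceosomal protein gene, from 116 to 131 CPM to 75.3 to 94.6 CPM. Of the 5, 4 had a mean transcript length under 1000 nt and DNAJC15 had 6721 nt in the files. The 8 libraries mix inputs with pull-downs, so a shared drop in the pull-down raises these correlations.

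The pull-down differences of MT2A, MT1E and MT1X stayed negative with library size alone and on the TPM scale. That of MT1M stayed negative with library size alone (-0.55 in clean air, -0.70 after formaldehyde) but not on the TPM scale. On the TPM scale the median tested gene stood 0.94 higher in the pull-down than in the input in clean air, and MT2A stood at -0.28, MT1E at -0.61 and MT1X at -0.08 on the log2 scale, whereas MT1M stood at 0.18. Relative to that median they stood at -1.22, -1.56, -1.03 and -0.77, and MTF1 stood at 0.23. After formaldehyde the median was 0.88, and the values relative to it were -1.10 for MT2A, -1.37 for MT1E, -0.99 for MT1X, -0.87 for MT1M and -0.33 for MTF1. Together the metallothionein members made up 0.133 to 0.167% of the expected counts in the inputs and 0.0605 to 0.0879% in the pull-downs.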

How the data were processed

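RNA from 8 BEAS-2B libraries was measured. Per the labels and the study's methods, the authors made libraries with a small RNA kit, sequenced paired 75-base reads, trimmed them with cutadapt, aligned them with STAR 2.6.0a to GRCh38 and quantified transcripts with RSEM 1.2.25. The deposited tables give, for 206601 transcripts, expected counts, which the authors did not normalize, and TPM, which they scaled to transcript length and library total. The authors also deposited 3 DESeq2 tables (log2 fold changes and p-values of their own comparisons), 2 of them identical, which were not used. The antibody label and the study's methods name clone 15A3 and the extract protocol in the labels another clone.

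Expected counts were summed by gene and rounded to whole numbers. Genes with at least 10 in at least 2 libraries were fitted with edgeR 4.0.16 (TMM, quasi-likelihood, 4 group means, all 8 libraries) in R 4.3.3, with Benjamini-Hochberg adjustment over 18242 genes and a limit of 0.05. Intervals used t quantiles with 8.72 degrees of freedom, or 21.9 in the fit with the term for the RNA pool. Both numbers include degrees of freedom borrowed from all genes. CPM are divided by TMM-scaled library sizes, and log2 CPM used a prior count of 2. Symbols and coordinates came from GENCODE 44. Common dispersion was 0.0190, a coefficient of variation of 0.138. Depth limits MT1G, MT1F and MT1M, and counts without molecular identifiers are not independent molecules. On simulated counts for the 18242 genes the fit recovered 157 of 200 changes of 2 (log2) in the input comparison with 16 other calls, and 156 with 12 others in the clean air pull-down.

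Titles give no replicate number, and libraries are numbered 1 and 2 in accession order. The numbers in the files' names (1 and 3) were used to pair the libraries, and the study's methods describe splitting each RNA into input and pull-down. Deviations of same-numbered libraries correlated at 0.203 to 0.380 in all 6 pairs of groups. Input with pull-down gave 0.380 in clean air but 0.246 after formaldehyde, below the 0.283 of CA_IN with FA_IN. These values thus do not single out an RNA pool. Alternatives were DESeq2 1.42.0, its size factors or library size alone in edgeR, no filter, a stricter filter (mean of 50 counts or more), the 4 libraries of a comparison, terms for replicate number or RNA pool, and each library left out. The named genes were the members, other metallothionein genes with counts, up to 4 genes per list (called ones, else the smallest p) and the 5 most alike in log2 CPM. Members and lists were chosen with earlier results of these data known.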

Additional observations from a re-analysis of the deposited data

How the results depend on the processing

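The log2 differences of MT2A, MT1E, MT1X and MT1F between pull-down and input kept their direction under every alternative run, and MT2A stayed under the limit of 0.05 except without FA_IN replicate 1. Numbers of calls moved with the settings, and the cause was not tested. In the input, 1 gene was called in the reported fit, 100 without a filter, 258 with the replicate block, 3 by DESeq2, 0 in the fit to 4 libraries and 0 to 1 when a library was left out. The clean air pull-down called 349 genes (27 higher, 322 lower), 1157 with library size alone (821 higher, 336 lower), 686 without a filter, 1941 with the replicate block (1235 higher), 3178 with the replicate block by RNA pool (2111 higher) and 194 to 318 without 1 library (217 without CA_IN replicate 1, 194 without CA_IP replicate 1). The formaldehyde pull-down called 274 (6 higher), 561 with library size alone (318 higher), 578 without a filter, 953 with the replicate block (367 higher), 1835 with the block by RNA pool (995 higher) and 121 to 282 without 1 library (121 without FA_IN replicate 1, 146 and 161 without FA_IP replicate 1 and 2). Library size alone raised the median of all genes to 0.16 in clean air and 0.17 after formaldehyde, and MT2A stood at -1.17 and -1.08 relative to it. The comparison between pull-downs called 0 genes, 52 without a filter, 3 with the replicate block, 25 with the block by RNA pool, 3 by DESeq2 and 0 to 5 without 1 library.

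Members called in clean air numbered 2, with 4 under either block, 1 in the fit to 4 libraries and 1 to 2 without 1 library. After formaldehyde they numbered 1, with 4 under either block, 4 without a filter, 3 in the fit to 4 libraries, 2 by DESeq2 and 0 to 2 without 1 library. In clean air 3 members were called without a filter and 2 by DESeq2. DESeq2 called 505 of the 18242 tested genes in clean air (404 lower) and 389 after formaldehyde (371 lower). The fits to 4 libraries, each with its own filter, called 280 and 298 genes. Reversed signs were confined to differences that were not called. In the input, MT1M read -0.017 with library size alone, -0.00052 without a filter, -0.082 with the replicate block and -0.020 by DESeq2. Without 1 library the ranges were -0.073 to 0.43 for MT1E, -0.33 to 0.54 for MT1F, -1.23 to 0.59 for MT1M and -0.051 to 0.44 for MT1X. MTF1 in the clean air pull-down read 0.11 with library size alone and -0.12 to 0.029 without 1 library, and MT1M after formaldehyde -1.44 to 0.38. Between pull-downs MT1X read 0.0041 with library size alone, 0.0062 without a filter and 0.014 with a mean count of at least 50, and without 1 library the ranges were -0.22 to 0.51 for MT1E, -0.60 to 0.43 for MT1F, -0.72 to 1.10 for MT1M, -0.35 to 0.42 for MT1X and -0.11 to 0.29 for MT2A.

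Where a library was left out, the single library of its group was taken to vary like the other groups. The depth of MT1F and MT1M (13 to 145 counts) limits both.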
